A study of Mus musculus with 24 samples.

Results

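The genes described here code for 10 proteins that hold the mitochondrial inner membrane folds in shape, tie them to the outer membrane, and set channels and lipid bridges at the mitochondrial surface. They were chosen by symbol, and all 10 were found among the 39396 genes of the count table: Immt, Chchd3, Chchd6, Apoo, Apool, Samm50, Mtx1, Mtx2, Vdac1 and Vps13d. All 10 also passed the filter on low counts, which kept 17352 genes. RNA was sequenced from the left ventricle of newborn mice in 24 libraries. Rhot1 and Rhot2, the genes of the Miro proteins that anchor mitochondria to motor proteins, had been removed from cardiomyocytes during embryonic life in the mutants (DKO). The controls are named only as controls, so their alleles are not given, and the labels name neither a strain nor the Cre line that drove the deletion. Control and DKO groups of 6 libraries each carried the label day 1, and 2 further groups of 6 the label day 7. Separate animals are not stated for the libraries, and the p-values below therefore reflect only how far libraries of a group differ, which may be technical in part.

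MICOS, the mitochondrial contact site and cristae organizing system, sits at the necks of the cristae, the folds of the inner membrane that carry the respiratory chain. Its core subunit is mitofilin, the product of Immt. On the outer membrane MICOS meets the SAM complex, which inserts barrel-shaped proteins and contains SAMM50 and the metaxins. Together they form a bridge between both membranes. In animals Miro proteins have been placed near MICOS and near contacts between mitochondria and the endoplasmic reticulum (ER), and VPS13D, a lipid transfer protein, is held at mitochondria by Miro. Heart muscle cells are packed with mitochondria whose cristae are dense.

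Total counts were 30318018 to 45806171 per library at label day 1 and 17334498 to 30453874 at label day 7. Rhot1 averaged 158 ± 16.6 CPM (counts scaled to library size after TMM normalization; SD, n = 6) in controls and 119 ± 9.89 in DKO libraries labelled day 1 (log2 fold change -0.42 ± 0.08 SE, adjusted p = 0.00109, edgeR), and 155 ± 7.41 and 132 ± 10.8 in those labelled day 7 (-0.25 ± 0.06, adjusted p = 0.0871). Rhot2 had no counts in any library, and all of its exonic bases lie inside other genes, so it checks nothing. The tissue is whole ventricle although the labels call it cardiomyocyte, so fewer cells of a type and less RNA per cell cannot be told apart. The summed level of 8 ventricular cardiomyocyte markers was high in every group, with medians of 57730 CPM (control day 1), 51230 CPM (DKO day 1), 52860 CPM (control day 7) and 49250 CPM (DKO day 7). Of these 8 markers, 3 were called lower in DKO at labelled day 1 (Tnnt2, Ryr2 and Ttn; median log2 difference of the 8 -0.16) and 0 at labelled day 7 (median -0.14, with none above 0), and their part in the values below was not tested. The labelled ages ran against known development. In controls, 7 of 7 genes of the early postnatal heart, such as Igf2, were called higher at labelled day 7 than at day 1. There, 7 of 7 genes of the later postnatal heart, such as Ckmt2, were called lower. In DKO libraries 5 of 7 early genes were called higher and 6 of 7 later genes lower. Among all genes, 53.1% were called in either direction in controls and 52.6% in DKO libraries. Y-linked transcripts were present in 6, 6, 2 and 2 libraries of control day 1, DKO day 1, control day 7 and DKO day 7. The atrial gene Myl7 exceeded 50 CPM in 4, 0, 6 and 6 of them.

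The promoters of 3 genes are shown because the results below turn on them: Chchd6, the member that passed between genotypes at labelled day 1, its partner subunit Chchd3, whose RNA ratio to Chchd6 moved, and Mtx2, which rose with the label in both genotypes. Each is the 250 bases before the RefSeq start in GRCm38.p6, written 5′ to 3′ in the direction of the gene, and capitals mark every match to the 5 motifs searched.
Chchd6, chr6:89595653-89595902, minus strand: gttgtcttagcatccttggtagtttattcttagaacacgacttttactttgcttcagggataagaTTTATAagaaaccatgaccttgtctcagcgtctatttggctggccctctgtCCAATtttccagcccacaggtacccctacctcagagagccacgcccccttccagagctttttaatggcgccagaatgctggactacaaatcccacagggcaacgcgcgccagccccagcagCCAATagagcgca
Chchd3, chr6:33060261-33060510, minus strand: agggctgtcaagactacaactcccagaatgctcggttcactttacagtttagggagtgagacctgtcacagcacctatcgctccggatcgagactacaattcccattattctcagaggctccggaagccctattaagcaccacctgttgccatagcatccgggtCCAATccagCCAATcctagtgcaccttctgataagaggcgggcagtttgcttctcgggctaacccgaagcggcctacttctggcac
Mtx2, chr2:74825562-74825811, plus strand: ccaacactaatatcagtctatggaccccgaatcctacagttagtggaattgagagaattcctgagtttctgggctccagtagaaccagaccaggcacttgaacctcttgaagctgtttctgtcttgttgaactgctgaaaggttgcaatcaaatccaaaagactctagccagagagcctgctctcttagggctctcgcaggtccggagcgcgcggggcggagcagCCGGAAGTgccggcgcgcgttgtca
The motifs were the box CCAAT, the box spelled TATAAA, the ETS or GABP motif ACTTCCGG, the NRF1 motif and the amino acid response core TGATGNAA, each on both strands and with no overlap among the matches shown. CCAAT was found in 6 of the 10 promoters (Immt, Chchd3, Chchd6, Apool, Samm50 and Vps13d) and in 33.8% of 32851 mouse promoters of the same length. Chchd6 has CCAAT at 134 and at 13 bases before the start and a TATAAA match on the other strand at 185, while Chchd3 has CCAAT at 86 and 77. TATAAA was in 3 of the 10 (Chchd6, Apoo and Vps13d) and in 12.4% of all. The ETS or GABP letters were in Mtx2 alone, 25 bases before the start, and in 2.88% of all. The other pair of motifs, in 3.74% and 3.45% of all promoters, matched none of the 10. A match is a description of letters, and binding was not measured.

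Per kilobase of the principal transcript, which allows levels to be set beside each other, the 10 genes spanned a wide range. In controls labelled day 1, Chchd3 stood at 345 ± 27.1 CPM per kilobase (SD, n = 6) and Vdac1, the voltage-dependent anion channel of the outer membrane, at 341 ± 19.3. These overlapped across libraries. Immt followed at 240.9 ± 14.0 and Apoo at 235.6 ± 16.1, overlapping each other and lying below the first pair. Samm50 stood apart at 69.5 ± 4.3. Apool (45.2 ± 3.54) overlapped Mtx2 (36.7 ± 5.66). Chchd6 (21.3 ± 3.67) overlapped Mtx1 (20.4 ± 1.54), and Vps13d was lowest at 7.58 ± 0.699. The order changed in few places in the other groups. Chchd3 and Vdac1 overlapped in all of them, and Chchd6 lay above Mtx1 with no overlap. Immt lay above Apoo with no overlap in both groups labelled day 7, and Mtx2 passed Apool there, with overlap in controls and none in DKO libraries. Dividing by all exonic bases instead moved Immt below Apoo and put Vdac1 first in every group, and moved Mtx2 above Apool in both groups labelled day 1, so the order of those neighbours depends on the transcript length used.

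**Figure D1:**
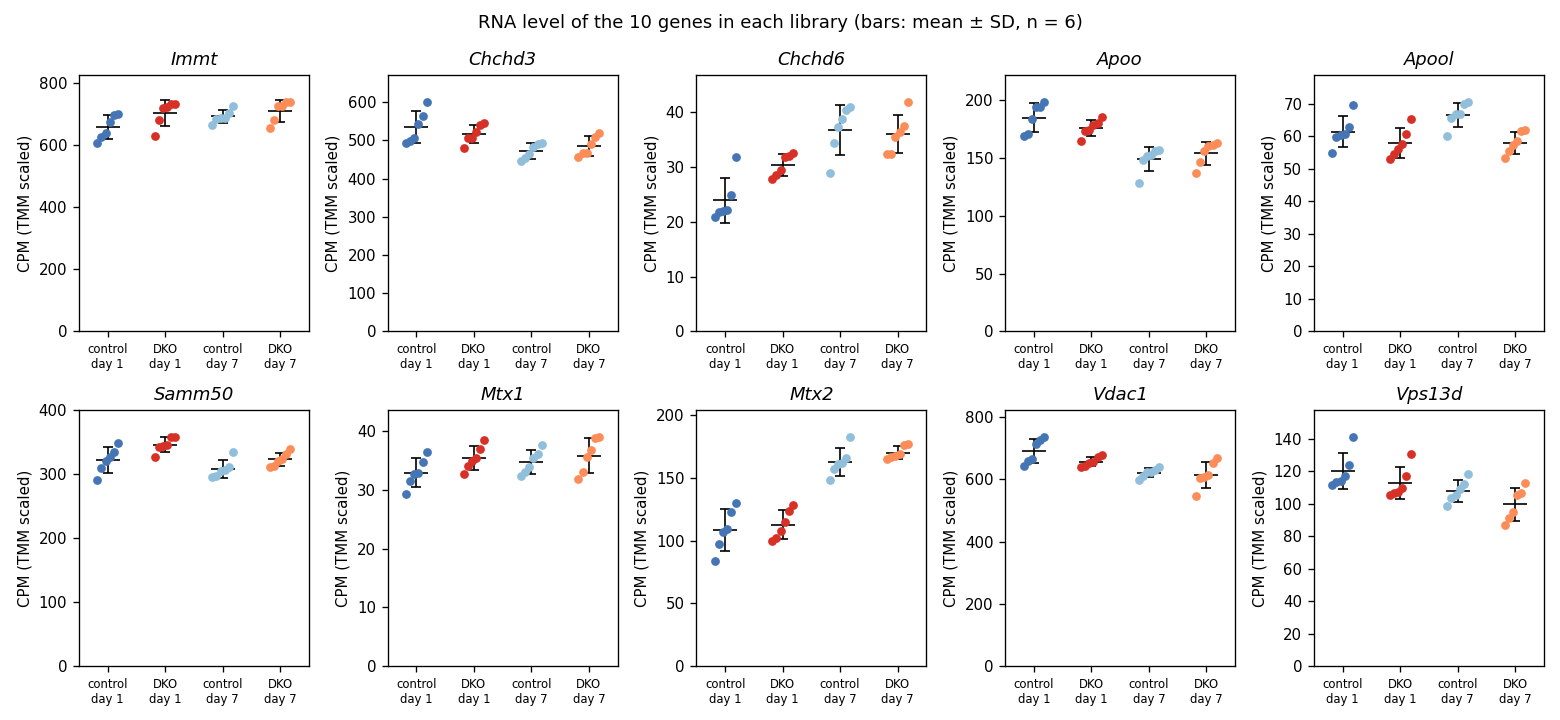
RNA level of each of the 10 genes in every library, as CPM after TMM scaling on a linear axis from 0; each point is a library, bars are the mean ± SD of 6 libraries, and the groups are control and DKO labelled day 1 and day 7. Chchd6 rises from a mean of 23.9 in controls to 30.4 in DKO libraries labelled day 1, and Mtx2 lies higher at labelled day 7 in both genotypes. All 10 genes overlap between genotypes at both labelled ages.

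The first comparison asks which of these RNAs differ when both Miro genes are lost, in the libraries labelled day 1. Chchd6, which codes for the MICOS subunit MIC25, was the only one of the 10 to pass the threshold, and it was higher in DKO. Across all genes tested, 17.6% passed (9.81% higher and 7.79% lower), so 1 of 10 is no larger a share than the background. Chchd6 ran from 20.8 to 31.8 CPM in controls with a median of 22.0, and from 27.9 to 32.5 CPM in DKO libraries with a median of 30.6. Every DKO library lay above the control mean, and the groups overlapped only through control 13, at 31.8 CPM, since the next control was at 24.8. The log2 fold change was 0.34 ± 0.09 SE (95% interval 0.141 to 0.541, adjusted p = 0.0197, edgeR's quasi-likelihood test with Benjamini-Hochberg adjustment). Without control 13 it was 0.44 (adjusted p = 0.000219), and leaving out any other library of the 12 gave adjusted p-values up to 0.0479. The 4 controls above 50 CPM of Myl7 were in this comparison opposite 0 DKO libraries. Without them, 2 controls remained and the log2 fold change of Chchd6 was 0.51 (adjusted p = 0.00239).

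The other MICOS genes stayed near their control levels in libraries labelled day 1. Immt, the scaffold of the complex, ran from 607.8 to 698.8 CPM in controls (median 657.2) and from 629.4 to 732.7 in DKO libraries (median 721.2). Its log2 difference was 0.09 ± 0.06 SE, with a 95% interval of -0.0268 to 0.21 (adjusted p = 0.294, edgeR), and 4 DKO libraries lay above the highest control. Chchd3, coding for MIC19, the subunit that links mitofilin to SAMM50, ran from 493.3 to 599.8 CPM in controls (median 525.8) and from 480.6 to 545.3 in DKO (median 515.1), a difference of -0.05 ± 0.06 (adjusted p = 0.588, edgeR). Apoo and Apool code for MIC26 and MIC27, apolipoprotein-like subunits that act on the membrane lipids of the crista neck, and both lie on the X chromosome. Apoo had medians of 188.4 CPM in controls and 176.3 CPM in DKO libraries, and Apool had medians of 60.5 CPM and 56.8 CPM. Both pairs of ranges overlapped.

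The genes of the outer membrane part of the bridge did not pass the threshold at labelled day 1. Samm50, the barrel of the SAM complex, ran from 291.5 to 349 CPM in controls (median 323) and from 326.6 to 357.8 in DKO libraries (median 345), a log2 difference of 0.10 ± 0.05 SE with a 95% interval of -0.0108 to 0.206 (adjusted p = 0.216, edgeR). All 6 DKO libraries lay above the control mean. Mtx1 and Mtx2 code for the metaxins, the cytosolic face of the SAM complex; in worms and flies metaxins also act with Miro in linking mitochondria to motors. Mtx1 differed by 0.10 ± 0.06 and Mtx2 by 0.05 ± 0.10 (adjusted p = 0.301 and 0.787, edgeR). Mtx1 has 36.9% of its exonic bases inside other genes, among them Thbs3, and the counting was not stated to use strand, so part of its reads may belong elsewhere.

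The channel and the lipid transfer protein also overlapped between genotypes at labelled day 1. Vdac1 ran from 642.1 to 735 CPM in controls (median 688.1) and from 639.9 to 676.8 in DKO libraries (median 653), with a log2 difference of -0.08 ± 0.05 SE (adjusted p = 0.308, edgeR). All 6 DKO libraries lay below the control mean. Vps13d ran from 111.3 to 141 CPM in controls (median 115.6) and from 105.3 to 130.6 in DKO libraries (median 108.7), a difference of -0.10 ± 0.07 (adjusted p = 0.391, edgeR). With the atrial marker level as a covariate the Vps13d value became -0.31 (adjusted p = 0.0118). Over its alternatives with all or some of the libraries its adjusted p ran from 0.0118 to 0.779, and the sign turned to 0.03 when a trend with gene length was removed. The part of atrial tissue in the Vps13d value can be told apart from the genotype only in part. Among libraries labelled day 1, Myl7 exceeded 50 CPM in 4 of 6 controls and in 0 of 6 DKO libraries.

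**Figure D2:**
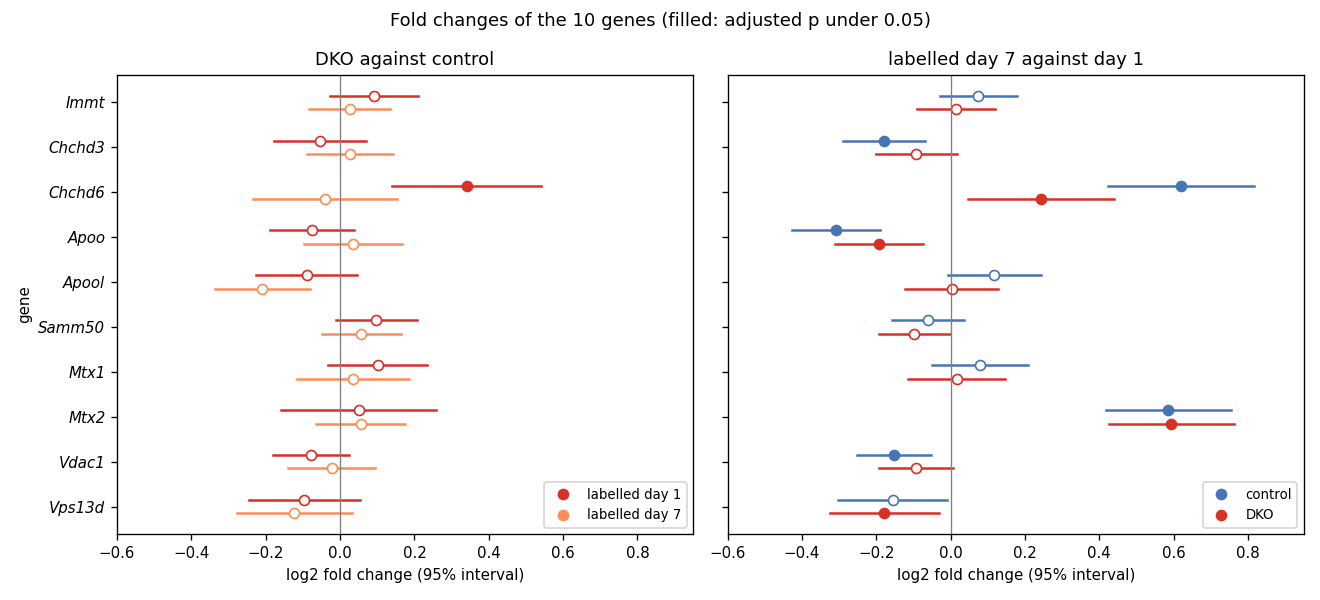
Log2 fold changes of the 10 genes with 95% intervals from edgeR, for DKO against control at each labelled age (left) and for labelled day 7 against day 1 in each genotype (right); filled points passed an adjusted p of 0.05. Chchd6 is the only filled point on the left, at 0.34, and Mtx2 lies at 0.59 in both genotypes on the right.

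In libraries labelled day 7, none of the 10 genes passed the threshold for DKO against control in edgeR, where 1.02% of all genes passed. At an unadjusted p under 0.05 there was 1, Apool, beside 14.1% of all genes, so 1 of 10 is no larger a share than the background. DESeq2 called the same gene. Apool ran from 59.9 to 70.4 CPM in controls (median 66.7) and from 53.4 to 61.9 CPM in DKO libraries (median 57.8). All 6 DKO libraries lay below the control mean and 4 lay below the lowest control. The log2 fold change was -0.21 ± 0.06 SE (95% interval -0.337 to -0.0818, adjusted p = 0.123, edgeR's quasi-likelihood test). DESeq2 gave -0.20 with an adjusted p of 0.0457, and across the other tools and settings the adjusted p ran up to 0.31.

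All 10 genes, Apool included, overlapped between genotypes at labelled day 7. Chchd6 did not pass at this label. It ran from 28.8 to 40.8 CPM in controls (median 38.0) and from 32.3 to 41.7 in DKO libraries (median 35.9). Its log2 difference was -0.04 ± 0.09 SE (95% interval -0.235 to 0.153, adjusted p = 0.887, edgeR). Immt (0.03 ± 0.05), Chchd3 (0.03 ± 0.05), Apoo (0.04 ± 0.06), Samm50 (0.06 ± 0.05), Mtx1 (0.03 ± 0.07), Mtx2 (0.06 ± 0.06) and Vdac1 (-0.02 ± 0.06) all had log2 differences close to or below their standard error. Vps13d was at -0.12 ± 0.07 (adjusted p = 0.471, edgeR), with medians of 107.2 CPM in controls and 100.2 CPM in DKO libraries.

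Whether the genotype effect differed between the labelled ages was tested as an interaction over all 24 libraries. None of the 10 genes passed, against 1.08% of all genes, and 1 had an unadjusted p under 0.05, against 11.4% of all genes. That gene was Chchd6, whose genotype effect at labelled day 7 minus that at day 1 was -0.38 ± 0.14 SE on the log2 scale (95% interval -0.654 to -0.0977, adjusted p = 0.222, edgeR). DESeq2 and limma-voom also called none. Leaving out control 13 labelled day 1 brought Chchd6 past the threshold, at -0.48 (adjusted p = 0.0277), and over the other alternatives its adjusted p ran from 0.0865 to 0.357.

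Ratios between partner genes within a library do not depend on how libraries are scaled, and 5 were compared in 4 comparisons each, 20 in all, with exact permutation tests (two-sided, all 924 splits) and Benjamini-Hochberg adjustment. Of these, 11 passed: 3 of the 10 comparisons between genotypes and 8 of the 10 between labelled ages. Ratios of other gene pairs were not tested, so no background share stands beside these counts. Among single genes, 53.1% passed between labelled ages in controls and 52.6% in DKO libraries. Between genotypes 17.6% passed at labelled day 1 and 1.02% at labelled day 7. Whether these ratios move more than those of other genes is therefore not known. The smallest p that 6 against 6 can give is 0.00216.

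The 2 X-linked subunits shifted against each other in DKO libraries labelled day 7. The ratio of Apoo to Apool counts was 2.13, 2.14, 2.17, 2.32, 2.34 and 2.35 in the 6 controls and 2.48, 2.53, 2.63, 2.74, 2.76 and 2.80 in the 6 DKO libraries, which did not overlap. The mean log2 ratio was 0.25 higher in DKO, 1.19-fold (exact permutation p = 0.00216, the smallest possible, adjusted p = 0.00866). In the 12 tests that left out a library the difference lay between 0.23 and 0.26. Groups that do not overlap had to stay apart in each of them, so only the size of the difference could vary. Of the labelled day 7 libraries, 2 controls and 2 DKO had Y-linked transcripts, with ratios of 2.32 and 2.35 against 2.48 and 2.80. Without such transcripts, 4 controls spanned 2.13 to 2.34 against 2.53 to 2.76 for 4 DKO libraries, a log2 difference of 0.28. The exact permutation p was 0.0286, the smallest that 4 against 4 can give. Because the whole groups do not overlap, both parts had to stay apart and that p could not be larger. Whether the ratio depends on the presence of Y-linked transcripts was not tested. At labelled day 1 the ratio averaged 3.02 ± 0.207 in controls and 3.05 ± 0.195 in DKO libraries (log2 difference 0.02, exact permutation, adjusted p = 0.797). The difference between those 2 genotype effects was not tested.

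Apoo shares sequence with a processed pseudogene, Apoo-ps, whose counts were 0.601 to 0.644 of those of Apoo in all 24 libraries, so reads may be split between them. With both summed, the labelled day 7 ratio still passed. Because that share was nearly the same in every library, summing could hardly change the difference and does not show how reads were split. The range of the difference over all settings was 0.24 to 0.28.

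The MIC19 to MIC25 pair moved at labelled day 1. There were 15.5 to 27.1 reads of Chchd3 for each read of Chchd6 in controls (median 24.4) and 15.04 to 19.4 in DKO libraries (median 17.02). All 6 DKO libraries lay below the control mean, and control 13, at 15.5, lay among them. The log2 difference was -0.40 (exact permutation p = 0.0216, adjusted p = 0.0433). The call was lost in 9 of the 12 tests that left out a library, with adjusted p-values up to 0.0708, and when medians were compared. Vdac1 relative to Vdac2 plus Vdac3, the other channel isoforms, was 0.69 to 0.769 in controls and 0.633 to 0.701 in DKO libraries labelled day 1, a log2 difference of -0.10 (exact permutation p = 0.0238, adjusted p = 0.0433), and this call too was lost in 9 of 12. At labelled day 7 the same ratio differed by -0.11 (adjusted p = 0.0649, exact permutation). The Mtx1 to Mtx2 and Immt to Samm50 ratios did not pass between genotypes at either labelled age. The log2 difference for Immt to Samm50 was -0.01 at labelled day 1 and -0.03 at labelled day 7.

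**Figure D3:**
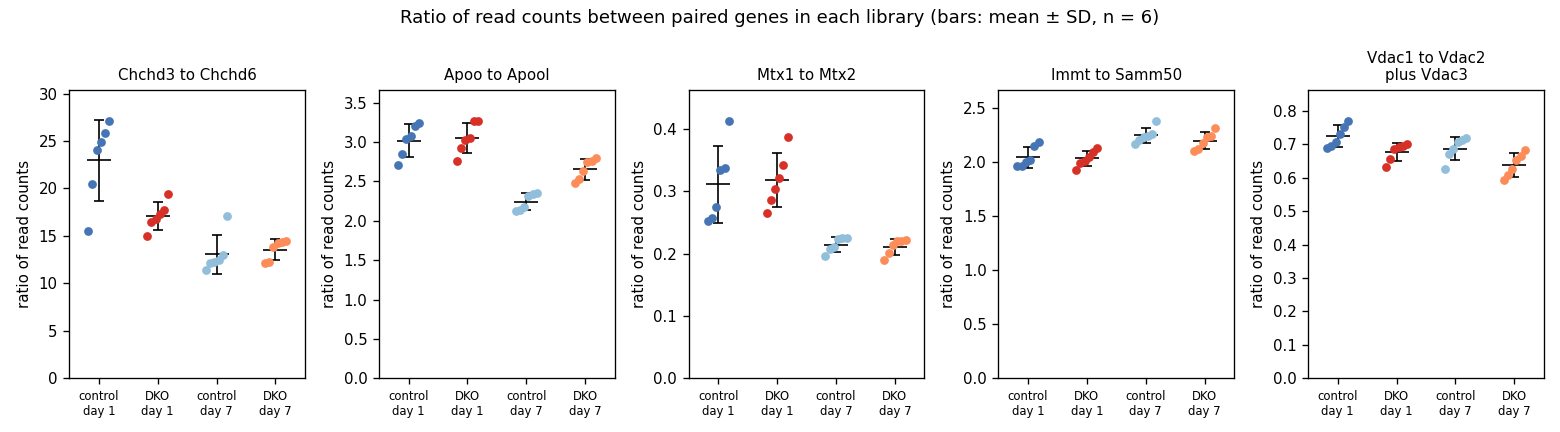
Ratio of read counts between paired genes in every library on linear axes from 0; each point is a library, bars are the mean ± SD of 6 libraries in each of the 4 groups. The Apoo to Apool ratio of DKO libraries labelled day 7 lies between 2.48 and 2.80, above all controls of that label, which end at 2.35.

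The labelled ages were compared within each genotype. Across all genes 53.1% passed in controls and 52.6% in DKO libraries, and 5 of the 10 genes passed in controls and 4 in DKO. These shares are near the background. Markers of other cells moved with the label. In controls labelled day 7, 8 of 8 fibroblast and 8 of 8 endothelial markers were lower, and in DKO libraries 7 of 8 of each. The summed fibroblast level of controls ran from 5339 to 6924 CPM at labelled day 1 and from 2339 to 4312 at labelled day 7. Other lists went both ways in controls. Of 6 mural markers 2 were higher and 4 lower, of 7 macrophage markers 1 and 5, and of 7 epicardial markers 2 and 2. Their part in the values below was not tested.

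Mtx2 and Chchd6 rose with the label. Mtx2 ran from 84.1 to 130.2 CPM in controls labelled day 1 (median 108) and from 147.8 to 182.3 in those labelled day 7 (median 161), with no overlap. In DKO libraries it ran from 99.3 to 128.5 CPM (median 111.4) and from 164.6 to 176.6 (median 167.9), again with no overlap. The log2 fold changes were 0.59 ± 0.08 SE in both genotypes (adjusted p = 1.52e-06 in controls and 1.26e-06 in DKO, edgeR). The 2 controls labelled day 7 with Y-linked transcripts were at 165.6 and 182.3 CPM, and the 4 without at 147.8 to 161.5 CPM. As the whole groups do not overlap, both parts had to lie above the controls labelled day 1. All 6 controls labelled day 1 had Y-linked transcripts. The other metaxin did not move with it: Mtx1 differed by 0.08 ± 0.06 and 0.02 ± 0.06, so that the Mtx1 to Mtx2 ratio fell from 0.311 ± 0.0618 to 0.214 ± 0.0123 in controls and from 0.318 ± 0.0435 to 0.211 ± 0.0131 in DKO libraries (adjusted p = 0.00866 in each, exact permutation).

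Chchd6 rose 1.54-fold in controls, from a median of 22.0 to 38.0 CPM (log2 0.62 ± 0.10 SE, adjusted p = 6.35e-06, edgeR), and 5 of 6 libraries labelled day 7 lay above the highest of day 1. In DKO libraries, where the level labelled day 1 was already higher, the change was 0.24 ± 0.10 (adjusted p = 0.0346, edgeR). That DKO call ended with upper-quartile scaling (0.17, adjusted p = 0.124), with pseudogenes left out (0.19, adjusted p = 0.101), with Y-linked or atrial levels as a covariate, and in 6 of the 12 fits that left out a library. It held in 8 of 12 other settings, and over all its alternatives the adjusted p ran from 0.0162 to 0.715. The Chchd3 to Chchd6 ratio fell with the label in both genotypes, by 0.80 and 0.33 on the log2 scale (adjusted p = 0.0124 and 0.00866, exact permutation).

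Apoo fell with the label in both genotypes. Its level went from 169.3 to 198 CPM (median 188.4) to 128.4 to 157 CPM (median 152.4) in controls and from 164.3 to 185 (median 176.3) to 137 to 162.8 (median 157.9) in DKO libraries, with no overlap in either. The log2 fold changes were -0.31 ± 0.06 SE and -0.19 ± 0.06 (adjusted p = 6.67e-05 and 0.00645, edgeR). Apoo is X-linked, and Y-linked transcripts were in all libraries labelled day 1 but in only 2 of each genotype labelled day 7. At labelled day 7, controls with them were at 151.9 and 157 CPM and those without at 128.4 to 156. DKO libraries with them were at 137 and 160.3 CPM and those without at 146.5 to 162.8. Apool did not pass (0.12 ± 0.06 and 0.00 ± 0.06), and the Apoo to Apool ratio fell by 0.43 in controls and by 0.20 in DKO libraries on the log2 scale (adjusted p = 0.00866 and 0.0144, exact permutation). With the atrial covariate the Apoo call in DKO libraries ended (-0.21, adjusted p = 0.169), and over its alternatives the adjusted p ran from 0.000485 to 0.169.

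Further calls were smaller. In controls Vdac1 fell from a median of 688.1 to 622.2 CPM with no overlap (-0.15 ± 0.05 SE, adjusted p = 0.00971, edgeR). Chchd3 fell there from 525.8 to 474.2 CPM (-0.18 ± 0.05, adjusted p = 0.00636, edgeR). That Chchd3 call ended when the length trend was removed (-0.09, adjusted p = 0.249) and with the Y-linked covariate (-0.16, adjusted p = 0.0544). Neither gene passed in DKO libraries, where both differed by -0.09 ± 0.05 (adjusted p = 0.108 for Vdac1 and 0.148 for Chchd3, edgeR). The Vdac1 groups overlapped there. Vdac1 passed in DKO libraries in 5 of 12 other settings and Chchd3 in 2. In DKO libraries Vps13d fell by 0.18 on the log2 scale (SE 0.07, adjusted p = 0.037, edgeR). That call ended in 5 of the 12 fits that left out a library (adjusted p up to 0.119), and its sign turned with the atrial covariate (0.24, adjusted p = 0.0551). In controls the difference was -0.16 ± 0.07 (adjusted p = 0.067), and it passed in 6 of 13 other settings. Groups that do not overlap were seen for 3 of the 10 genes in controls (Mtx2, Apoo, Vdac1), beside 26.8% of all genes, and for 2 in DKO libraries (Mtx2, Apoo), beside 30.8%. Immt, Samm50, Apool and Mtx1 passed in neither genotype. Samm50 was at -0.10 ± 0.05 SE in DKO libraries (adjusted p = 0.0822, edgeR) and passed there in 5 of 12 other settings. In controls it passed in 1 of 13. The Immt to Samm50 ratio rose by 0.14 in controls and by 0.11 in DKO libraries on the log2 scale (adjusted p = 0.0124 and 0.0144, exact permutation).

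Among the 10 genes, Chchd3 and Vdac1 kept the steadiest ratio to each other: the SD of their log2 ratio over the 24 libraries was 0.0609. Immt and Samm50 followed at 0.0823, Apoo and Vdac1 at 0.0886, Chchd3 and Samm50 at 0.0915 and Chchd3 and Apoo at 0.0924, while Apoo and Mtx2 were farthest apart at 0.46. Over 7626 genes at a mean of 20 CPM or more, the gene closest to Immt was Sdhb, the iron-sulfur subunit of respiratory complex II (SD of the log2 ratio 0.0445), then Cyc1, the cytochrome of complex III (0.0638), and Cope, a subunit of the vesicle coat COPI (0.0655). The median over all genes was 0.223. The closest to Samm50 were Abhd11 (0.0597), Atp6v1d (0.0624), a subunit of the vacuolar proton pump, and Slc25a4 (0.0629), the ADP and ATP carrier of heart mitochondria. The closest to Vps13d were Ddx17, an RNA helicase (0.0849), Cpne3 (0.0854) and Sh3d19 (0.0929). These are descriptions across libraries that share groups and tissue make-up.

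Genes around the complex were set beside the 10. Of 8 other MICOS and MICOS-bridge genes tested, 2 were higher in DKO at labelled day 1 and none lower, beside 9.81% and 7.79% of all genes. The count of lower genes was 1 in 5 of the 12 fits that left out a library and in 3 of 12 other settings. Chchd10, a small protein of the space between both membranes, rose from 753.5 to 993.8 CPM (log2 0.39 ± 0.08 SE, adjusted p = 0.00362, edgeR) and Dnajc11, a J-domain protein bound to the bridge, from 77.3 to 92.7 (0.26 ± 0.06, adjusted p = 0.0106). Chchd10 also rose at labelled day 7 (574.3 to 749.9 CPM, 0.37 ± 0.07, adjusted p = 0.00915). Micos10 and Micos13, core MICOS subunits, did not pass at either labelled age. Chchd2, the partner of Chchd10, had no counts. The median log2 difference of the 8 was 0.02 at labelled day 1 and 0.09 at labelled day 7, beside -0.02 and -0.01 over all genes.

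Of 11 genes of the TOM import pore and outer membrane channels, 1 was higher at labelled day 1, beside 9.81% of all genes, a share near the background. It was Tomm5, a small TOM subunit (68.3 to 91.4 CPM, 0.42 ± 0.08, adjusted p = 0.0025, edgeR). None of the 11 passed at labelled day 7, beside 1.02% of all genes. The median log2 difference was 0.01 and 0.05. Of 27 ER contact and lipid transfer genes, 2 were higher and 3 lower at labelled day 1, so 5 of 27 passed beside 17.6% of all genes, a share near the background. Hspa9, the mitochondrial chaperone that also couples VDAC1 to the ER calcium channel, rose from 563.9 to 764.9 CPM (0.44 ± 0.09, adjusted p = 0.00294), while Itpr1, such a calcium channel, fell from 190.1 to 152.5 (-0.32 ± 0.07, adjusted p = 0.00383) and Fundc1, a mitophagy receptor found at ER contacts, from 46.4 to 39.5 (-0.24 ± 0.05, adjusted p = 0.0045). At labelled day 7 Hspa9 was the only one of the 27 to pass (693.9 to 921.8 CPM, 0.40 ± 0.05, adjusted p = 0.000401), beside 1.02% of all genes. The median was -0.05 and -0.01.

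Of 19 cristae shape and cardiolipin genes, 4 were higher and 1 lower at labelled day 1, beside 17.6% of all genes in either direction, and none passed at labelled day 7, beside 1.02%. The count of lower genes was 0 in 7 of the 12 fits that left out a library and in 4 of 12 other settings. Phb2, a prohibitin of the inner membrane ring, rose from 186.7 to 216.6 CPM (0.21 ± 0.05, adjusted p = 0.0097, edgeR). Chchd4 and Gfer, the oxidase pair that folds small proteins with CHCH motifs on import, rose from 50.04 to 58.8 CPM (0.23 ± 0.06, adjusted p = 0.0187) and from 23.7 to 27.5 (0.21 ± 0.06, adjusted p = 0.0187). Their median was 0.08 and 0.06. Among the 10 genes the median was 0.00 and 0.03. Without the 4 controls above 50 CPM of Myl7 the calls of Chchd10, Chchd4 and Fundc1 at labelled day 1 ended (0.33, 0.18 and -0.21, with adjusted p = 0.0724, 0.198 and 0.0594, edgeR). They also ended with the atrial marker level as a covariate (0.39, 0.18 and -0.24, with adjusted p-values up to 0.212). With the length trend removed those of Itpr1 and Gfer ended (-0.18 and 0.13, adjusted p = 0.0681 and 0.128), and with all 24 libraries in a single fit those of Dnajc11 and Gfer (adjusted p = 0.0628 and 0.0527).

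**Figure D4:**
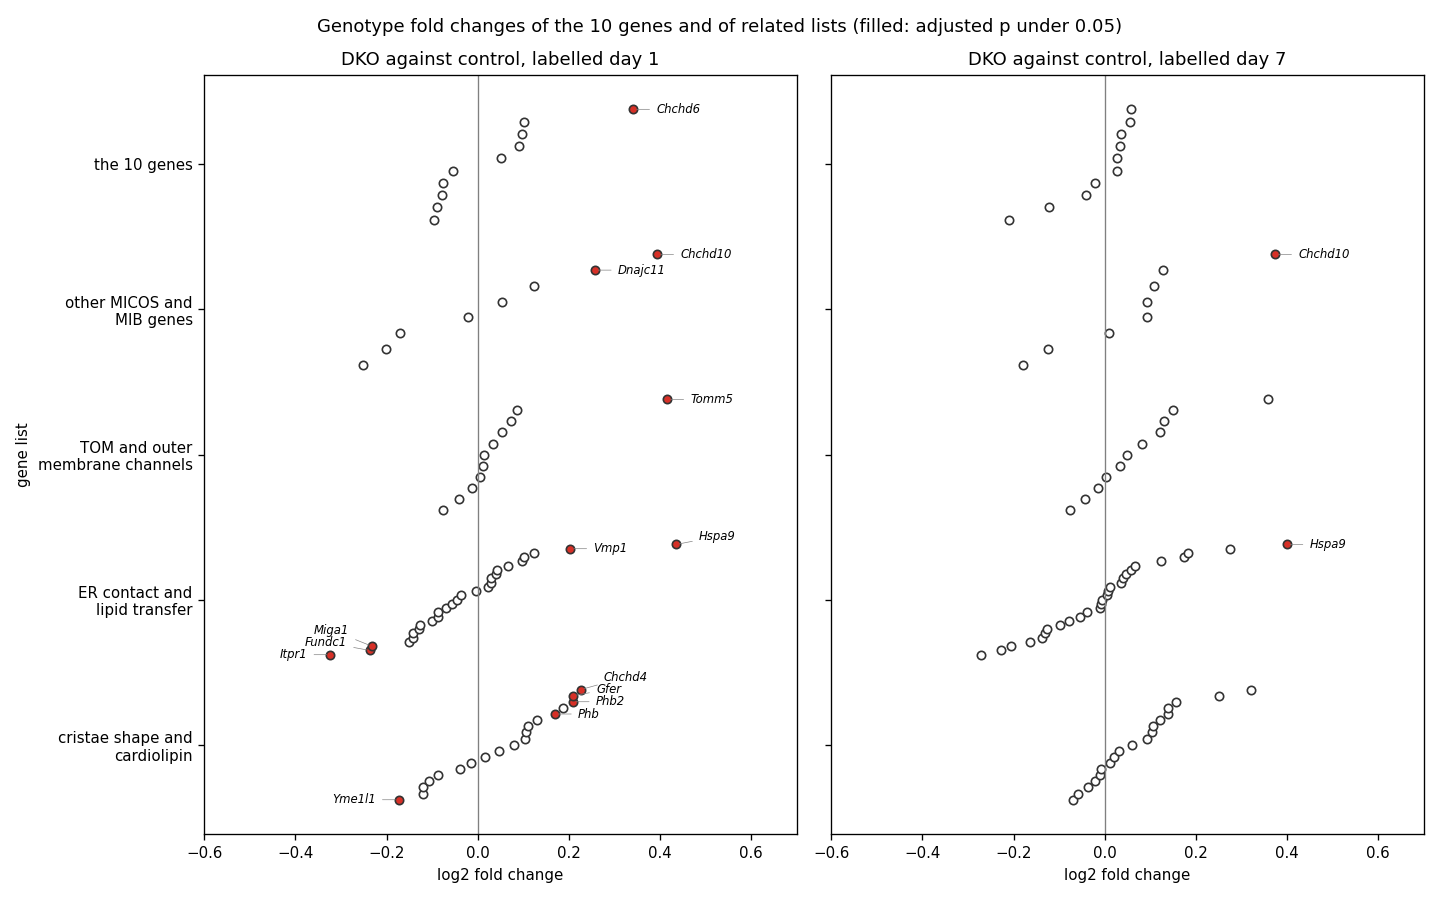
Log2 fold changes of DKO against control for the 10 genes and the 4 related lists, at labelled day 1 (left) and day 7 (right); each point is a gene, and filled, named points passed an adjusted p of 0.05. The 10 genes lie between -0.10 and 0.10 at labelled day 1 apart from Chchd6 at 0.34, and Chchd10 and Hspa9 are the filled points at labelled day 7.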

How the data were processed

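The authors deposited a table of raw read counts per gene for the 24 libraries, unpooled. The submitters' processing notes name bcl2fastq, STAR 2.4.2a and GRCm39, and the counting tool was not given in the sources used here. Per the labels' protocols, polyadenylated RNA was copied with a low-input kit. The 10 genes and all lists were chosen with earlier results of these data known. Genes were kept by filterByExpr (minimum count 10), scaled by TMM and entered in edgeR 4.0.16 (R 4.3.3; robust quasi-likelihood F-test, Benjamini-Hochberg over 17352 genes, threshold 0.05). Genotype was fitted over the 12 libraries of each labelled age, and the interaction and age contrasts over all 24. Ratios used log2 of counts plus 0.5. DESeq2 1.42.0 and limma 3.58.1, other scalings, filters, covariates and left-out libraries were alternatives. The tests were checked first: edgeR, DESeq2, limma and the ratio test were tested on simulated data. The text names all 10 genes, the targeted genes, up to 3 called genes per list with the smallest p, and the 3 nearest genes of Immt, Samm50 and Vps13d. GENCODE M21 on GRCm38 gave transcript lengths and overlaps.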

Additional observations from a re-analysis of the deposited data

Results flagged for a closer look

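In each group of 6 libraries, the gap between the highest or lowest library and its neighbour was compared with the whole range, for the 10 genes and the 5 ratios. Of 60 groups 4 had a gap above Dixon's 95% limit, and chance alone flags about 1 in 20. Control 13 labelled day 1 was high for Chchd6, at 31.8 CPM against 24.8 in the next control (gap 0.639 of the range). Among controls labelled day 7, library m1088 was low for Apoo, at 128.4 CPM against 148.5 (0.703), and library m1101 was high for Samm50, at 335.3 CPM against 310.5 (0.633). Library m1101 also had a high Chchd3 to Chchd6 ratio, at 17.1 against 13.0 (0.715).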

How the results depend on the processing

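No paired analysis was possible because no library name is shared between groups. For the genotype comparisons and the interaction, the count of the 10 genes past the threshold changed in few settings. Between labelled ages it varied more. For DKO against control at labelled day 1 it was 2 with atrial markers as a covariate and 1 in all other settings. At labelled day 7 it was 1 with DESeq2 and 0 otherwise. For the interaction, leaving out each library gave 0 to 1, the exception being control 13. For labelled age it was 4 to 7 in controls, and in DKO libraries 1 with the atrial covariate, 3 to 6 in the other settings and 2 to 4 when a library was left out (2 without DKO 69 labelled day 1 or m1067 labelled day 7). Leaving out each library gave 1 to 1 at labelled day 1, 0 to 0 at labelled day 7 and 5 to 7 for labelled age in controls. The Vps13d change with labelled age in DKO turned to 0.2351 with the atrial covariate. Of 20 ratio comparisons 10 to 11 passed across settings and 9 to 13 when a library was left out. The cause of these changes was not tested. Of the 10 genes' 480 genotype values under alternatives, 478 kept their side of the threshold and 2 passed it anew. Of their 490 labelled-age values 447 kept it, 23 passed it anew, 19 lost it and 1 changed sign, and of 360 interaction values 359 kept it. The alternatives that left out atrial-rich controls, summed Apoo with its pseudogene or used libraries without Y-linked transcripts were chosen after seeing the data. Chchd6, at a mean of 917 to 1007 counts per library and group, and Mtx1, at 878 to 1285, had the fewest reads of the 10.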
